A study of Homo sapiens with 32 samples.

Results

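PSCA, PIP and WFDC2 are 3 genes whose products are placed on the surface of, or released by, secretory epithelial cells. They were followed in tamoxifen-treated ZR-75-1 xenografts at 5 times, 1 to 14 days after tamoxifen was started. They were taken by symbol from the paper's list of changed probes, where each has 1 probe, so they account for 3 of the 333 named probes and 3 of the 9912 probes on the arrays. That list was itself selected on the log2 ratios of these arrays, with a change of at least 1.5-fold, or 0.58 on the log2 scale, as 1 condition. The 3 genes were thus chosen by the comparison of treated tumors with the pool, and their values in it are a description, with no test. PSCA and PIP come from set 6 of the list and WFDC2 from set 4.

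ZR-75-1 is an estrogen receptor-positive line derived from a human breast carcinoma, grown here under the skin of female nu/nu mice, which lack a thymus and so T cells. Every animal, control or treated, carried a pellet with 0.72 mg of estradiol (E2) to be released in 60 days. Treated animals also carried 2.5 mg of tamoxifen, an antagonist of the estrogen receptor in breast tissue, to be released in the same time. Each treated tumor was hybridized on a human cDNA array against 1 control pool, made of E2-only xenografts of days 0, 1, 2 and 4, in a forward and a dye-swap orientation. There were 4 tumors from 2 mice on day 1, 2 from 2 mice on day 2, 4 from 3 mice on day 4, 4 from 3 mice on day 7 and 2 from 2 mice on day 14. The animals' ages are not given in the sources used here. Because the pool holds no xenograft of day 7 or 14 and no single E2-only tumor was used here, tamoxifen and the passage of time cannot be told apart on those days.

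All values are log2 ratios of treated tumor over control pool, averaged over both orientations of a tumor unless stated. The files do not say which dye each channel held. The sign was therefore taken from the authors' own value table, with which all 32 arrays correlated positively, r from 0.216 to 0.994. Read with the channel numbers of the sample labels, every sign below would turn. The pool, 1 RNA on every array, would then be the channel whose PSCA intensity was 11.4 to 12.4 at day 14 and 7.85 to 9.93 before, while the treated tumors would be the channel that stayed in its earlier range (8.03 to 8.84 against 7.77 to 10.0). The dye-swap array of day 4 tumor 3 was left out, since before turning its ratios followed the forward array of day 4 tumor 2 (r = 0.88 across probes) and not its own forward array (r = -0.29 after turning). Day 4 tumor 3 thus rests on 1 array, and 31 arrays were used. The forward array of day 7 tumor 4 had the lowest r with the authors' table, and the day 7 means are given with and without it. Of the luminal epithelial markers, 13 of 28 were among the named probes, with TFF1, TFF3, MUC1 and CLDN4 the brightest. Markers such as KRT8 or GATA3 could not be checked because no name was available for their probes. Whether mouse RNA from the host added to the signal of the human probes was not tested. In bulk tumors, fewer cells that express a gene and less RNA per cell cannot be told apart.

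PSCA (prostate stem cell antigen) is a small protein of the Ly6 family, held on the cell surface by a glycosylphosphatidylinositol (GPI) anchor. PIP (prolactin-induced protein, also known as GCDFP-15) is a secreted glycoprotein of apocrine and other exocrine glands and a marker of breast tumors with apocrine features. Its gene responds to prolactin and androgens. WFDC2 (also known as HE4) is a small secreted protein with WAP four-disulfide core domains, the fold of several protease inhibitors, and is made by many glandular epithelia. The 3 genes thus cover a surface protein, a hormone-dependent secretory product and a WAP-domain secretory product.

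PIP lies at chr7:143132077-143139739 and WFDC2 at chr20:45469753-45481532, both on the plus strand of GRCh38.p14. The 250 bases before the RefSeq transcription start of each, chr7:143131827-143132076 for PIP and chr20:45469503-45469752 for WFDC2, are shown because PIP was higher and WFDC2 lower at day 14, and because the estrogen and androgen receptors act through short DNA elements. Elements of the prolactin pathway were not searched. Capitals mark the half-sites found, 5′ to 3′ on the plus strand, and PSCA is not shown because no window was available for it.
PIP: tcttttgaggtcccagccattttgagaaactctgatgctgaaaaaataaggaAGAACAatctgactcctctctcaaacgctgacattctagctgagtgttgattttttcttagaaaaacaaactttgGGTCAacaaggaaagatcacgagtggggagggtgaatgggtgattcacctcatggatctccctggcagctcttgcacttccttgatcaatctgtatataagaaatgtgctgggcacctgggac
WFDC2: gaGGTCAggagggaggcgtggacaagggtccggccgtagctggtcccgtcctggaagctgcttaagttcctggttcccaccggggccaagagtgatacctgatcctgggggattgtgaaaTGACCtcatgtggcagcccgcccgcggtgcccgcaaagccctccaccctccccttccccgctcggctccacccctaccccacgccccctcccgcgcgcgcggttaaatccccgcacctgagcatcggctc
The full palindromic estrogen response element, GGTCANNNTGACC, was in neither window, and 0.0399% of the 35116 RefSeq promoter windows of this length held it. Its half-site GGTCA, or TGACC on the other strand, was found 1 time in PIP, 123 to 119 bases before the start. It was found 2 times in WFDC2, 248 to 244 and 130 to 126 bases before the start, against 32.6% of all windows with at least 1. The half-site of the androgen and glucocorticoid receptors, TGTTCT or AGAACA on the other strand, occurred 1 time in PIP, 198 to 193 bases before the start, and not in WFDC2, against 12.4% of all windows. No matches overlapped. These matches describe letters in a window and say nothing of binding or of why PIP and WFDC2 differed in direction.

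PSCA was the probe with the highest mean log2 ratio of all 9912 at day 14. Its 2 day 14 tumors had log2 ratios of 3.11 and 3.67, a mean of 3.39 ± 0.39 (SD, n = 2), or 10.5-fold over the pool. On day 1 the 4 tumors had log2 ratios of -0.44, -0.03, 0.02 and -0.23. On day 2 the 2 tumors had 0.16 and 0.80. These early tumors lay on both sides of the pool, and only the second tumor of day 2 was past the 1.5-fold line. On day 4 the 4 tumors had log2 ratios of 0.40, 0.47, -0.08 and 0.18, and on day 7 they had 0.34, 0.28, -0.09 and -0.18. The 14 tumors of days 1 to 7 ran from -0.44 to 0.80 with a median of 0.09, 8 above and 6 below the pool, and the lower day 14 tumor stood 2.31 above the highest of them. In order of their means, day 14 was followed by day 2 (0.48 ± 0.46), day 4 (0.24 ± 0.25), day 7 (0.09 ± 0.26) and day 1 (-0.17 ± 0.21), and each neighbouring pair among the last 4 overlapped in its tumors. Without the forward array of tumor 4 the day 7 mean was 0.07.

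**Figure D1:**
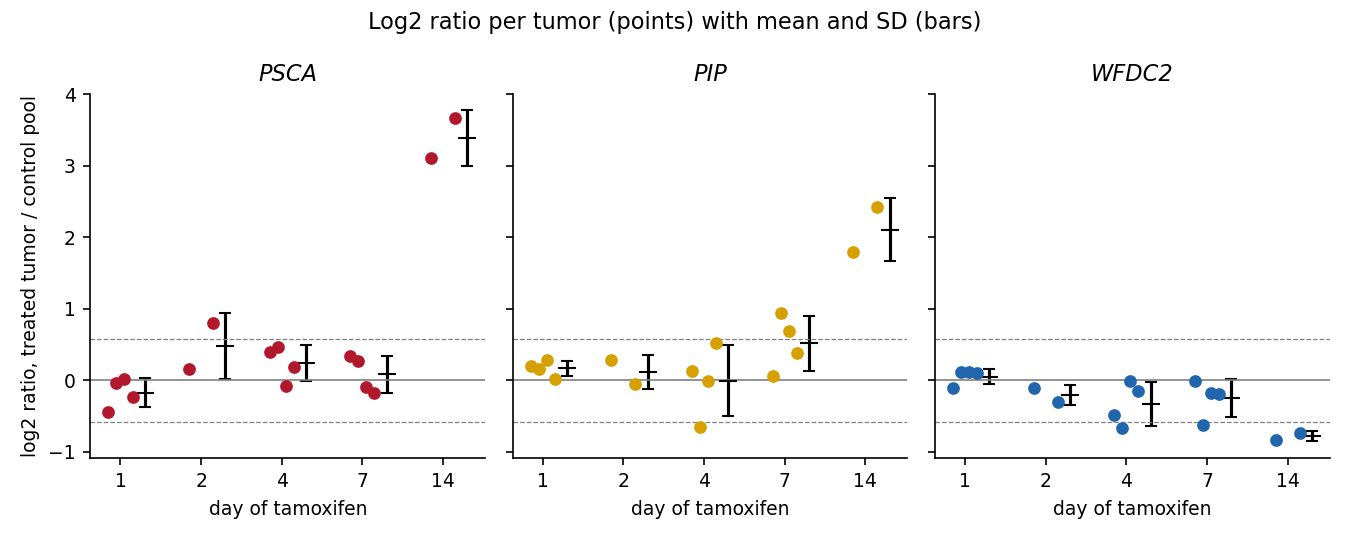
Log2 ratio of treated tumor over control pool (y) by day of tamoxifen (x) for PSCA, PIP and WFDC2. Points are tumors (4, 2, 4, 4 and 2 per day), horizontal ticks with bars are means with SD, and dashed lines mark 1.5-fold. The day 14 tumors stand apart by 2.31 for PSCA and 0.85 for PIP, but by 0.06 for WFDC2.

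PIP was also highest at day 14, where its mean ranked 7 of 9912. The 2 tumors had log2 ratios of 1.79 and 2.42, a mean of 2.11 ± 0.44 (SD, n = 2), or 4.31-fold over the pool. Unlike PSCA, PIP had its next highest mean on day 7, at 0.52 ± 0.38 (n = 4), where it ranked 28 of 9912. The 4 tumors of day 7 had log2 ratios of 0.06, 0.94, 0.69 and 0.38, so that all were above the pool and 2 were past 1.5-fold. The day 7 mean was 0.69 without the forward array of tumor 4. The 4 tumors of day 1 were close together, at 0.20, 0.16, 0.28 and 0.02. Day 2 had 0.29 and -0.05. Day 4 was the most uneven day for this gene, with log2 ratios of 0.13, -0.66, -0.01 and 0.53. The tumors at 0.13 and -0.66 grew in the same mouse. Over days 1 to 7, 11 of 14 tumors were above the pool, the highest was 0.94, and the lower day 14 tumor stood 0.85 above it. The means of days 1, 2 and 4 (0.17 ± 0.11, 0.12 ± 0.23 and 0.00 ± 0.49) were not separated in their tumors, and neither was day 7 from day 1.

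WFDC2 was the gene of the 3 that was lower than the pool. Its 2 day 14 tumors had log2 ratios of -0.83 and -0.73, a mean of -0.78 ± 0.07 (SD, n = 2), or 1.72-fold lower, which placed it 121st of 9912 from the bottom. Day 14 was the only day on which its mean was past 1.5-fold. The 4 tumors of day 1 had -0.11, 0.12, 0.11 and 0.10, and the mean of that day, 0.05 ± 0.11, was the highest. The 2 tumors of day 2 had -0.11 and -0.30, the 4 of day 4 had -0.49, -0.67, -0.01 and -0.15, and the 4 of day 7 had -0.01, -0.62, -0.17 and -0.19. From day 2 on, the values of all 12 tumors were below the pool, but the 2 orientations of several differed in sign. On dye-swap arrays alone the mean was 0.001 on day 2, -0.14 on day 4 and -0.01 on day 7. The value of day 4 tumor 3, -0.01, comes from its forward array alone, the orientation that read lower for WFDC2 (below). Its side of the pool is thus not settled. The day 14 tumors were the 2 lowest of 16, but the nearest earlier tumor, day 4 tumor 2, lay only 0.06 above. The means of day 2 (-0.21 ± 0.14), day 7 (-0.25 ± 0.26) and day 4 (-0.33 ± 0.30) overlapped in their tumors, and the day 7 mean was -0.17 without the forward array of tumor 4. A step at day 14 as seen for PSCA and PIP was thus not seen for WFDC2.

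The channels of the arrays showed where the ratios came from. For PSCA the normalized log2 intensity of the tumor channel was 7.85 to 9.93 on the 27 arrays of days 1 to 7 and 11.4 to 12.4 on the 4 arrays of day 14, while the pool channel was 7.77 to 10.0 and 8.03 to 8.84. The raw spot at day 14 was 19.8 to 47.4 times its local background in the tumor channel and 2.47 to 4.85 times in the pool channel. PSCA was therefore bright in the day 14 tumors and dim, but above background, in the pool. For PIP the tumor channel was 8.27 to 10.5 early and 10.6 to 11.7 at day 14, so that the dimmest day 14 array was just above the brightest earlier one. The pool channel of PIP, 7.94 to 9.92 early and 8.76 to 9.51 at day 14, overlapped between the 2 periods. Taken without the pool, the mean tumor channel at day 14 lay 3.20 above that of days 1 to 7 for PSCA and 2.05 above for PIP on the log2 scale, close to the ratios. For WFDC2 this difference was -0.27 against a mean ratio of -0.78. The baselines differ, days 1 to 7 for the channel and the pool for the ratio. The ratio of WFDC2 already had a median of -0.13 on days 1 to 7. The tumor channel of WFDC2 was 8.29 to 11.7 on the earlier arrays, a range that took in the 9.37 to 9.71 of day 14, and its pool channel had a median of 9.97 early and 10.3 at day 14. The pool channel at day 14, 9.73 to 10.9, lay inside its range on the earlier arrays, 9.24 to 11.1. The lower ratio of WFDC2 at day 14 thus came with a higher median of the pool channel as well as a lower one of the tumor channel (9.49 against 9.76). The pool was the same RNA on every array, and why its median differed was not tested.

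**Figure D2:**
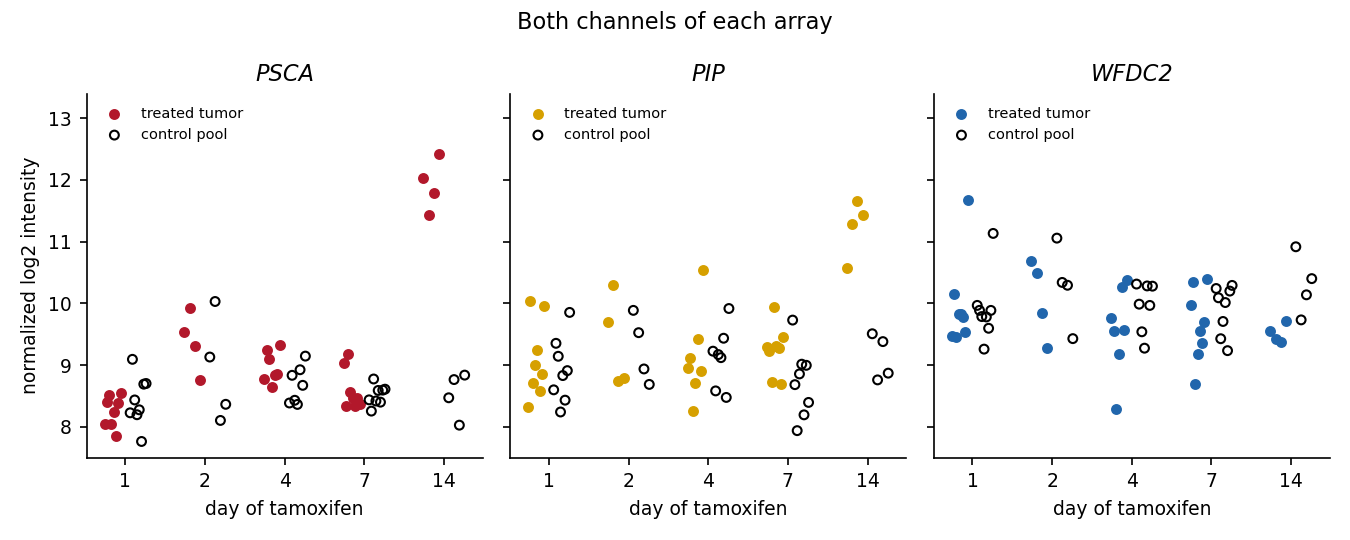
Normalized log2 intensity (y) of the treated tumor (filled) and the control pool (open) on each of the 31 arrays, by day of tamoxifen (x). The tumor channel at day 14 lies above all earlier arrays for PSCA and PIP and inside their range for WFDC2.

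The comparison of forward and dye-swap arrays was not itself a condition of the paper's list and was tested, over the 15 tumors with both. That list also had a p-value threshold, and the paper does not state whether the spread between orientations entered it. The test took each tumor as 1 unit, although some of the tumors share a mouse. WFDC2 was lower on the forward array in 15 of 15 tumors, by a mean of -0.56 ± 0.35 (SD; exact two-sided sign-flip test over the tumors, p = 6.1e-05, the smallest it can give, adjusted over the 3 genes 0.000183). PIP was lower on the forward array in 14 of 15 tumors, by a mean of -0.66 ± 0.50 (exact sign-flip test, p = 0.000244, adjusted 0.000366). PSCA went the other way, lower on the forward array in 5 of 15 tumors, with a mean difference of 0.27 ± 0.33 (exact sign-flip test, p = 0.00616, adjusted 0.00616). Differences of at least these sizes were seen for 11.3% of all probes for WFDC2, 6.61% for PIP and 46.2% for PSCA, so the dye difference of PSCA was close to the median of the array.

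The sign was steadier between orientations at day 14 than before, but the gap between them was no smaller. At day 14, PSCA had log2 ratios of 3.56 and 3.76 on the forward arrays and 2.66 and 3.58 on the dye swaps. PIP had 1.06 and 2.28 on the forward arrays and 2.53 and 2.57 on the dye swaps, so all 4 arrays were above the pool but the 2 arrays of its tumor 1 differed by more than the 2 tumors did. WFDC2 had -1.36 and -0.77 on the forward arrays and -0.30 and -0.69 on the dye swaps. All arrays of a gene thus had the same sign at day 14. The day 14 mean was 3.66 on forward and 3.12 on dye-swap arrays for PSCA, 1.67 and 2.55 for PIP, and -1.07 and -0.50 for WFDC2, which on the dye swaps alone was within 1.5-fold. Over the 13 tumors of days 1 to 7 with both arrays, the orientations had the same sign in 10 for PSCA, 5 for PIP and 5 for WFDC2. WFDC2 averaged -0.47 ± 0.29 on the forward arrays of those days and 0.08 ± 0.32 on the dye swaps, and PIP averaged -0.09 ± 0.46 and 0.54 ± 0.45. The day 7 mean of PIP was 0.09 from forward arrays alone and 0.94 from dye swaps alone. The early values of PIP and WFDC2 are thus averages of orientations that often opposed each other.

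**Figure D3:**
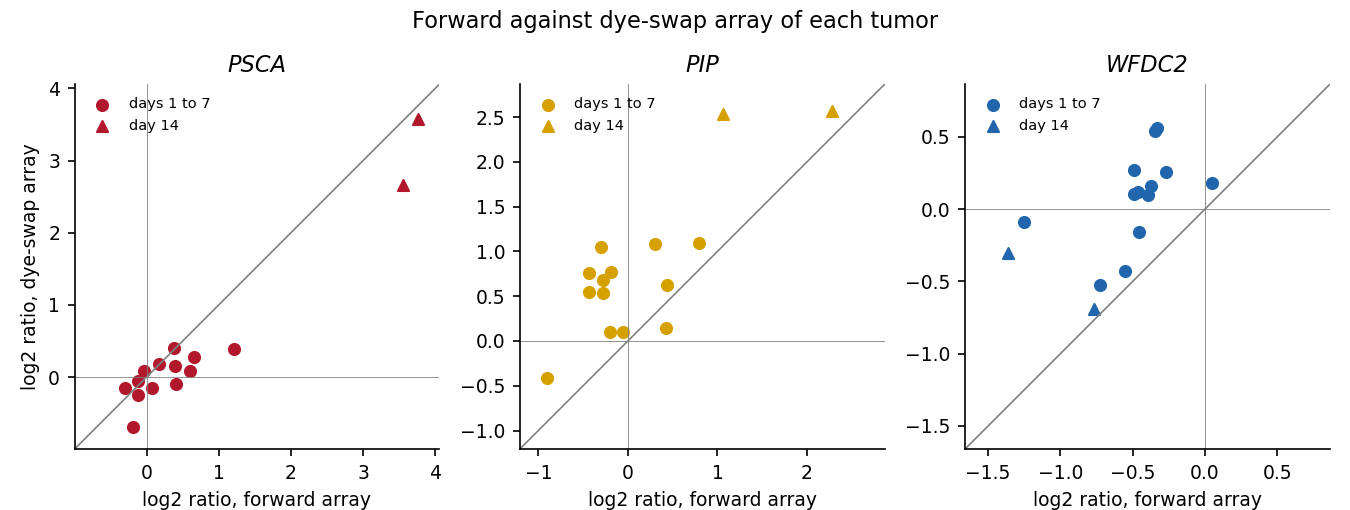
Log2 ratio on the dye-swap array (y) against the forward array (x) for the 15 tumors with both, circles for days 1 to 7 and triangles for day 14, with the line of equality. All points of WFDC2 and 14 of 15 of PIP lie above the line, and 5 of 15 of PSCA do.

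Tumors of the same mouse were measured in 4 pairs. PSCA differed within these pairs by 0.08 to 0.41, WFDC2 by 0.01 to 0.23 and PIP by 0.04 to 0.79. Across the 14 tumors of days 1 to 7, which share the control pool, the log2 ratio of PSCA ran against that of WFDC2 with r = -0.56 (rho = -0.49, and r = -0.68 without the 2 tumors farthest from the median of PSCA). For PSCA and PIP r was -0.27, and for PIP and WFDC2 it was 0.05. PSCA and PIP, both highest at day 14, therefore did not rise and fall together before it. Differences between days were not removed from these coefficients. Day 1 had the lowest mean of PSCA (-0.17) and the highest of WFDC2 (0.05). The coefficients are a description and were not tested.

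Among the 249 other named genes, those most like each of the 3 were found by r over the 16 tumors, with the brightest probe for a gene. PSCA was most like UNG2 (r = 0.94; a symbol that has been used for more than 1 gene), CAPS (0.92), MUC1 (0.91), CREB3L4 (0.86) and FOXJ1 (0.86). MUC1 is a membrane mucin of glandular epithelium, CREB3L4 a transcription factor of the endoplasmic reticulum membrane, FOXJ1 the transcription factor of motile cilia and CAPS a calcium-binding protein abundant in ciliated cells. At day 14 the mean log2 ratio was 1.56 ± 0.22 for UNG2, 1.58 ± 0.39 for CAPS, 1.02 ± 0.05 for MUC1, 0.91 ± 0.13 for CREB3L4 and 2.37 ± 0.84 for FOXJ1 (n = 2), all smaller than that of PSCA. The likeness rested largely on day 14. Over the 14 earlier tumors r fell to 0.48 for UNG2, 0.01 for CAPS, 0.56 for MUC1 and 0.51 for FOXJ1, and was 0.71 for CREB3L4.

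PIP was most like NR3C1, the glucocorticoid receptor (r = 0.85), SMAD1, a transducer of bone morphogenetic protein signals (0.85), ATP9A, a phospholipid flippase (0.84), UNG2 (0.83) and NEDD4L, a ubiquitin ligase (0.83). At day 14 NR3C1 had a mean log2 ratio of 0.79 ± 0.25, SMAD1 of 0.69 ± 0.01, ATP9A of 1.20 ± 0.04 and NEDD4L of 0.92 ± 0.11 (n = 2). Over days 1 to 7 the r with PIP was 0.63 for NR3C1, 0.74 for SMAD1, 0.60 for ATP9A and 0.58 for NEDD4L, but 0.06 for UNG2. WFDC2 was most like TFF3, a secreted trefoil peptide (r = 0.88), HSD17B1, which makes estradiol from estrone (0.87), CLN8, a membrane protein of the endoplasmic reticulum (0.82), GFRA1, the GPI-anchored co-receptor of GDNF (0.82), and NELL2, a secreted glycoprotein (0.81). All 5 come from set 5 of the list, whereas WFDC2 is in set 4. Their means at day 14, from -1.44 ± 0.33 for HSD17B1 to -2.53 ± 0.26 for GFRA1, were all lower than that of WFDC2. This likeness was less tied to day 14, with r over days 1 to 7 of 0.80 for TFF3, 0.82 for HSD17B1, 0.76 for CLN8, 0.68 for GFRA1 and 0.71 for NELL2.

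**Figure D4:**
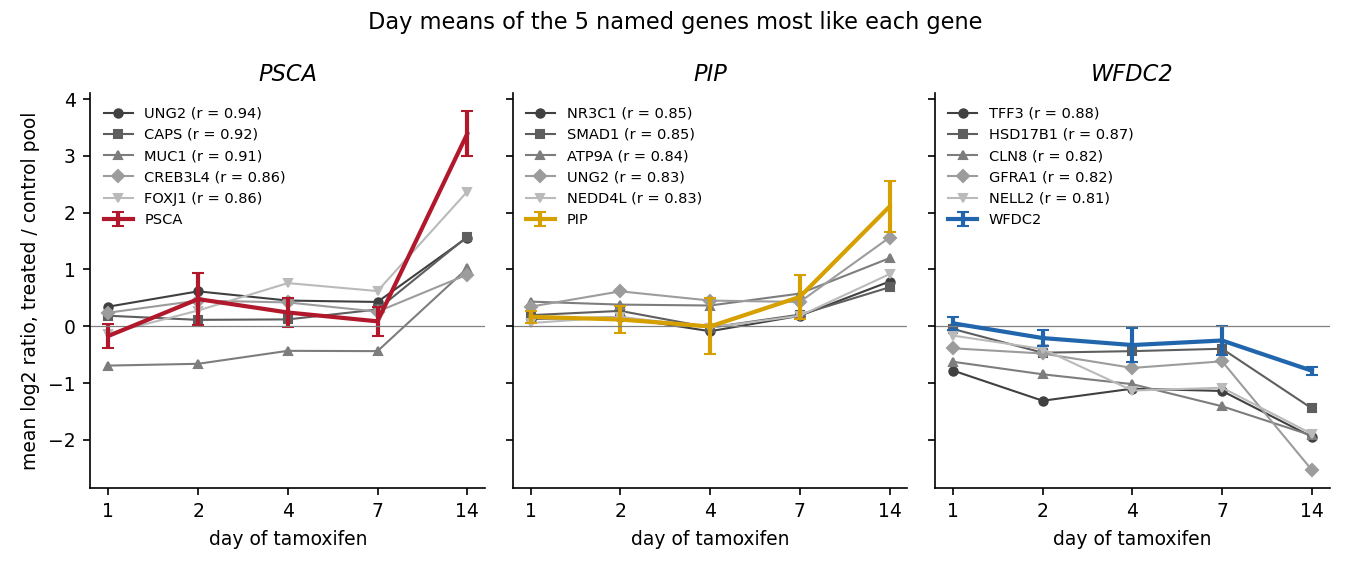
Mean log2 ratio of treated tumor over control pool (y) by day of tamoxifen (x) for PSCA, PIP and WFDC2 (coloured, with SD over tumors) and for the 5 named genes most like each (grey, with r over 16 tumors). The grey lines rise at day 14 beside PSCA and PIP and lie below WFDC2.

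Genes with related products were read from fixed lists, although their named members, too, entered the paper's list because they changed on these arrays. In limma, 3.29% of all 9912 probes were higher and 2.92% lower than the pool at day 14 at an adjusted p under 0.05, but 33.7% and 41.4% of the 249 named genes were, so the counts below stand beside the latter. Below, rose and fell mean higher and lower than the pool at day 14, not a change from earlier days. On day 1, 19.7% of the 249 were already higher and 22.5% lower. PRSS8 (0.76) and TFF1 (-1.27) were among these, and CAPS (0.19) was not. Of 7 other secreted products of glandular epithelium, 3 rose and 3 fell at day 14, with a median of 0.58 against -0.26 for the 249 named genes and 0.00 for all probes. Among the brightest, the trefoil peptides TFF1 (-2.11 ± 0.95) and TFF3 (-1.94 ± 0.03) and the antitrypsin gene SERPINA1 (-1.66 ± 0.20) fell, and the serine protease prostasin, PRSS8 (0.84 ± 0.12), rose. PIP was thus higher than any of these 7, whose highest was 1.17. Of 4 other protease inhibitors on the list built around the WAP domain, SPINT1 (0.72 ± 0.02) and TFPI2 (0.82 ± 0.32), inhibitors of the Kunitz type, rose, and the serpins SERPINA1 and SERPINA4 (-1.40 ± 0.21) fell. No other WAP-domain gene was among them.

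Of 5 other genes of the list of Ly6 and GPI-anchored surface proteins, 3 rose and 2 fell at day 14, with a median of 0.84. CD24, a GPI-anchored mucin-like protein, rose by 1.24 ± 0.24 (n = 2), PRSS8 rose as above, GFRA1 fell, and CD59, a Ly6-family inhibitor of complement, had -0.54 ± 0.02 and fell. PSCA and CD59, both of the Ly6 family, therefore differed in direction. Of 5 genes of the list of androgen and glucocorticoid response, 1 rose and 3 fell. NR3C1 rose, HSD17B1 and the fatty acid elongase ELOVL5 (-0.62 ± 0.23) fell, and NDRG1, a stress-responsive gene, was at -0.74 ± 0.33 and did not pass the test. PIP, which responds to androgens, stood above all 5, whose highest was 0.79.

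Markers of cell types were read from the same named probes. Of 13 luminal genes, 8 rose and 2 fell at day 14 (median 0.69), with MUC1 higher, TFF1 and TFF3 lower, and CLDN4, a tight junction protein, at 0.49 ± 0.22 without passing the test. Of 4 squamous genes, 2 rose, PERP (0.86 ± 0.30) and ITGB4 (0.80 ± 0.17), both parts of epithelial adhesion, while ANXA1 (0.75 ± 0.03) and LAMA3 (-0.41 ± 0.03) did not pass. Both multiciliated markers measured, of 11 on that list, rose, FOXJ1 with 1.78 and 2.96 in the 2 tumors and CAPS by 1.58 ± 0.39. Of 5 fibroblast and matrix genes, MYLK, a myosin kinase of contractile cells, rose (0.76 ± 0.03), MGP (-1.15 ± 0.53), LGALS1 (-0.68 ± 0.37) and FN1 (-0.61 ± 0.22) fell, and IGFBP7 (0.72 ± 0.49) did not pass. IGFBP7 was also the only endothelial marker measured, and HBG1 (-1.11 ± 0.55, not past the test) the only one of blood. The line is human and the host a mouse, so fibroblasts, vessels and blood cells of the host carry mouse RNA. Whether that RNA reached these human probes was not tested, so the markers give no count of such cells. The part that a change in any of these cell types had in the values of PSCA, PIP and WFDC2 was not tested.

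**Figure D5:**
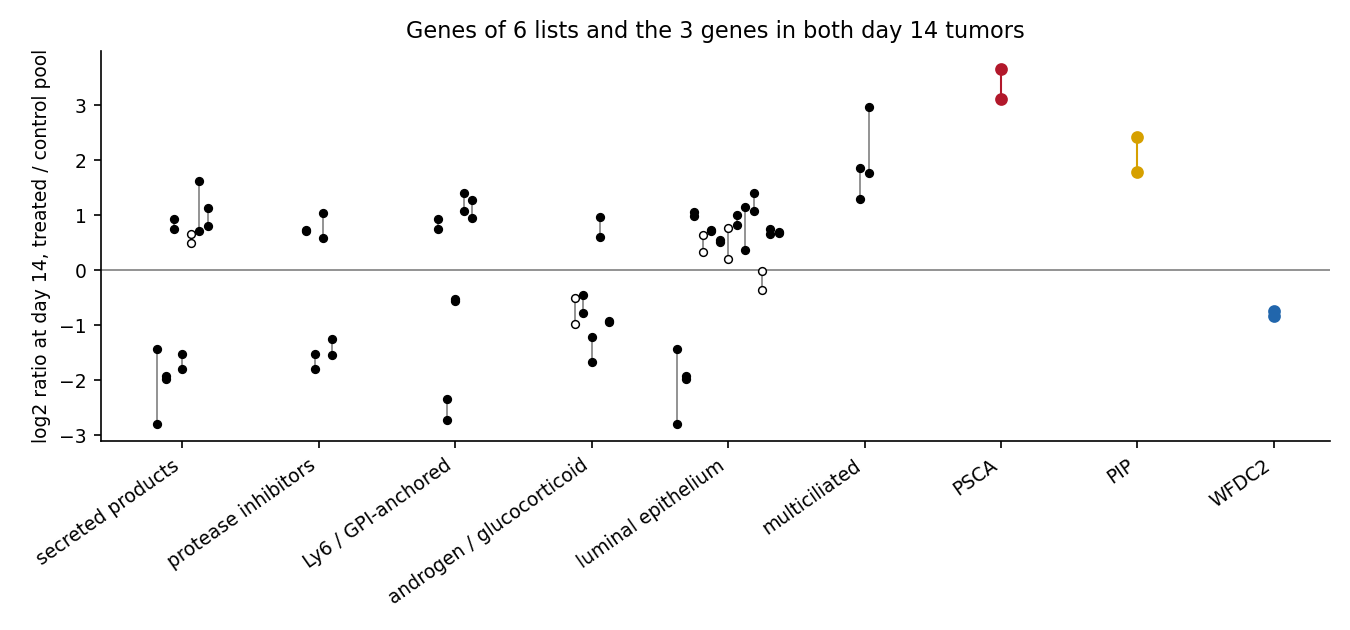
Log2 ratio at day 14 (y) in each of the 2 tumors, joined by a line, for the measured genes of 6 lists (filled where limma's adjusted p was under 0.05, open otherwise; a gene on more than 1 list appears in each) and for PSCA, PIP and WFDC2 (coloured, not tested). PSCA lies above every list gene in both tumors, and WFDC2 lies among the list genes that were lower than the pool.

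These calls leaned on both day 14 tumors. Over the 40 different list genes, 31 passed at day 14, 19 higher and 12 lower. Fewer passed with either day 14 tumor left out, where the remaining tumor was assumed to vary like those of the other days. The share of all probes that passed in those fits was not taken, so this fall cannot be called particular to the list genes. The control pool is 1 sample on every array, so its own spread is in no value or test given here.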

How the data were processed

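The scanner files deposited by the authors hold spot intensities of 2 channels with local backgrounds for 9912 probes on 32 arrays. The log2 ratios of the value table deposited by the authors were made with background correction, loess and quantile normalization in limma (version not given in the sources used here). The scanner files were used, and the table served to settle signs and as an alternative. No untreated single tumor was among the arrays.

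Spots marked 0, between 1 and 393 on an array and none of PSCA, PIP or WFDC2, were dropped. The normexp method (offset 50) removed background, followed by loess within and quantile normalization between arrays. Ratios were channel 2 over channel 1, turned on dye swaps, and averaged per tumor. In the dimmer channel an array had a median brightness of 2.29 to 6.62 times background, and the number of arrays limits the precision. Each day was compared with the pool with lmFit, 1 mean per day, the mouse as a random block (estimated correlation 0.02), eBayes and Benjamini-Hochberg adjustment over all probes. R 4.3.3, limma 3.58.1 and statmod 1.5.0 were used. The fit was checked on simulated data. P-values measure the spread between tumors, some of which share a mouse.

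The 3 genes and the lists were chosen with earlier results of these data known. The text names the 3 genes, the 5 most like each by r, and up to 4 measured genes per list, those of highest mean intensity. MYLK was named after its value was seen, and any other gene of a list that is named is there as 1 of the 5. Symbols and sets are those of the paper's list, and positions and promoters come from RefSeq on GRCh38.p14.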

Additional observations from a re-analysis of the deposited data

Results flagged for a closer look

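Of the 9 groups of 4 tumors (3 genes on days 1, 4 and 7), 1 had a tumor far from the others, and chance flags about 1 in 20 such groups. WFDC2 on day 1 was at -0.11 in tumor 1, while the other 3 tumors of that day lay between 0.10 and 0.12. The gap to the nearest of them was 0.916 of the range of that day, past the critical value for 4 samples. Its value lies within the range of WFDC2 on the other days.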

How the results depend on the processing

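The day 14 means kept their sign under all settings run, from 2.82 to 3.67 for PSCA, 1.67 to 2.55 for PIP and -1.07 to -0.27 for WFDC2. Moves beyond 1 SD of the tumors were 2.82 for PSCA and -0.65 for WFDC2 without background correction, and for WFDC2 also -1.07 with forward arrays alone, -0.50 with dye-swap arrays alone, -0.87 from the authors' table and -0.27 for the tumor channel alone. The tumor channel setting was chosen after seeing the data. It is taken against the tumor channel of days 1 to 7 and not the pool, so it is not the same measure. Leaving out 1 tumor gave 3.11 to 3.67, 1.79 to 2.42 and -0.83 to -0.73 for the 3 genes. The mean of PIP on day 4, near 0, changed sign in 8 of 15 settings. On days 1 to 7, only the orientations taken alone moved a mean beyond its SD, for PIP on days 1, 2 and 7 and WFDC2 on days 1 and 2. The forward array of day 7 tumor 4 was left out as a setting chosen after seeing the data. The dye difference stayed past the threshold in all 3 genes with background subtraction, median centring and the doubtful array used as the dye swap of day 4 tumor 3. Of 40 list genes, 31 passed at day 14 and 29 to 32 under the settings without a replicate block. Leaving out 1 tumor gave 5 to 32. The labels' tumor numbers do not pair tumors across days (mean r of same-numbered deviations 0.002), and with a replicate block 26 passed. Each day rests on 2 or 4 tumors and 1 pool.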
